A study of Mus musculus with 16 samples.

Results

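The genes of the proteasome and of the enzymes that start ubiquitin transfer were examined in whole lung RNA from a mouse model of experimental asthma. A gene was a member if its platform symbol began with Psma to Psmg (proteasome subunits and their partners), Ube2 (ubiquitin-conjugating enzymes, E2) or Uba followed by a digit (activating enzymes, E1). Of 86 such genes in the array annotation, 56 had a probe set whose values could be placed by a realignment of labels described under the processing, among 9866 genes named that way. The other member genes, which include the catalytic subunits Psmb5, Psmb6, Psmb9 and Psmb10, were not analysed here. A gene entered the tests if it exceeded log2 4, taken as the background level of intensity, on at least 4 arrays. That left 53 members among 7276 genes tested, 28 of them Psm genes and 25 E1 or E2 genes, and the members not tested were Psma8, Uba1y and Ube2d2b, which exceeded log2 4 on 0 arrays.

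The 16 Affymetrix arrays, 1 per sample, formed 4 groups of 4: the line titled BALB-RAG exposed to ovalbumin (OVA), the egg protein used as the allergen, BALB-RAG exposed to phosphate-buffered saline (PBS), BALB/c exposed to OVA and BALB/c exposed to PBS. Whole lungs were taken on day 22, a day after the exposures ended. The labels give no Rag allele, age, sex or dose. They do not state whether the replicates are different animals, and p-values here therefore measure sample-to-sample spread that may be technical. Rag genes encode the recombinase that assembles antigen receptor genes, without which mice lack mature T and B cells.

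The proteasome is the protease that degrades proteins tagged with ubiquitin. Its 20S core holds the catalytic sites within stacked alpha and beta rings, and its 19S cap recognises, unfolds and deubiquitinates the substrate. Ubiquitin is activated by an E1, passed to an E2 and placed on the target with the help of a ligase. Under interferon, inducible catalytic subunits such as Psmb8 replace constitutive ones and form the immunoproteasome, which cuts peptides for presentation on MHC class I. ISG15 and NEDD8 are ubiquitin-like proteins with E1 and E2 enzymes of their own.

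Median intensity per array lay between 18.2 and 20.5, 52.1 to 53.5% of all probe sets exceeded log2 4, and the members averaged log2 7.83 to 8.53 per array. Lung epithelial transcripts were at log2 11.47 to 12.02 on all 16 arrays (4 of 6 listed genes tested, mean per array), as the tissue label implies. Part of the BALB-RAG titles was not borne out: the mean of 7 tested T cell genes ranged over 3.19 to 5.66 on the OVA arrays labelled BALB-RAG, against 5.50 to 6.79 on the OVA arrays of BALB/c. On the PBS arrays it ranged over 4.39 to 4.81 where labelled BALB-RAG, against 4.40 to 4.80 for BALB/c. The mean of 5 plasma cell genes also overlapped on the PBS arrays, with 7.11 to 8.51 where labelled BALB-RAG, against 6.92 to 8.18 for BALB/c. That of 5 B cell genes separated the PBS groups, with 4.82 to 5.29 where labelled BALB-RAG, against 5.96 to 6.24 for BALB/c, and none of the genes of these 3 lists passed between the PBS groups (limma). In the T cell list replicate 2 was the highest of the arrays labelled BALB-RAG after OVA, with 5.66. Groups were kept as titled. The leading values that use that replicate are also given without it, whereas those that use the BALB-RAG PBS arrays cannot be given without the arrays in doubt, since these make up the whole group.

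In BALB/c lung, OVA raised Psmb8, Ube2t and Psmd14, and the rest of the machinery did not pass the test. Psmb8, the inducible chymotrypsin-like subunit of the immunoproteasome, rose 2.95-fold. Ube2t, the E2 of the Fanconi anaemia DNA repair pathway, rose 2.20-fold, and Psmd14, the deubiquitinase of the 19S lid, rose 1.33-fold. These were 3 of 53 members higher and 0 lower (limma, adjusted p under 0.05), where 8.73% of all genes tested were higher and 6.78% lower. At an unadjusted p under 0.05 there were 9 of 53 members, beside 2000 of 7276 genes. The members as a set thus held no larger share of calls than the array as a whole. Their median log2 difference was 0.13, beside 0.00 over all genes, and 38 of 53 were positive in sign, beside 3639 of 7276 genes.

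Psmb8 read log2 10.13, 9.91, 9.24 and 9.28 on OVA replicates 1 to 4 of BALB/c, against 8.75, 8.33, 7.57 and 7.66 on PBS replicates 1 to 4. Every OVA array lay above every PBS array, and within each line and exposure replicates 1 and 2 were higher than replicates 3 and 4. The log2 difference was 1.56 ± 0.35 (SE, n = 4 per group, limma, adjusted p = 0.00649). Psmb8 lies on chromosome 17 within the MHC, next to Psmb9, Tap1 and Tap2, and its neighbour Tap1, a subunit of the transporter that carries proteasomal peptides to MHC class I, rose 4.44-fold.

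Ube2t read 6.45, 6.32, 5.81 and 5.90 on the OVA arrays of BALB/c, against 4.80, 4.75, 5.12 and 5.27 on the PBS arrays. The groups did not overlap. The log2 difference was 1.14 ± 0.18 (SE, n = 4 per group, limma, adjusted p = 0.000579). It was 1.61 over replicates 1 and 2 alone (adjusted p = 0.00179) and 0.66 over replicates 3 and 4 alone (adjusted p = 0.0606).

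Psmd14 read 9.38, 9.31, 8.95 and 9.23 on the OVA arrays of BALB/c, against 8.92, 8.90, 8.60 and 8.79 on the PBS arrays. The groups were separate, by a narrow gap between OVA replicate 3 and PBS replicate 1. The log2 difference was 0.41 ± 0.12 (SE, n = 4 per group, limma, adjusted p = 0.0342). Leaving out any of OVA replicates 1, 2 and 4 or PBS replicates 3 and 4 lost the call, with the difference between 0.34 and 0.50 over all the alternatives that kept the placement of labels.

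**Figure D1:**
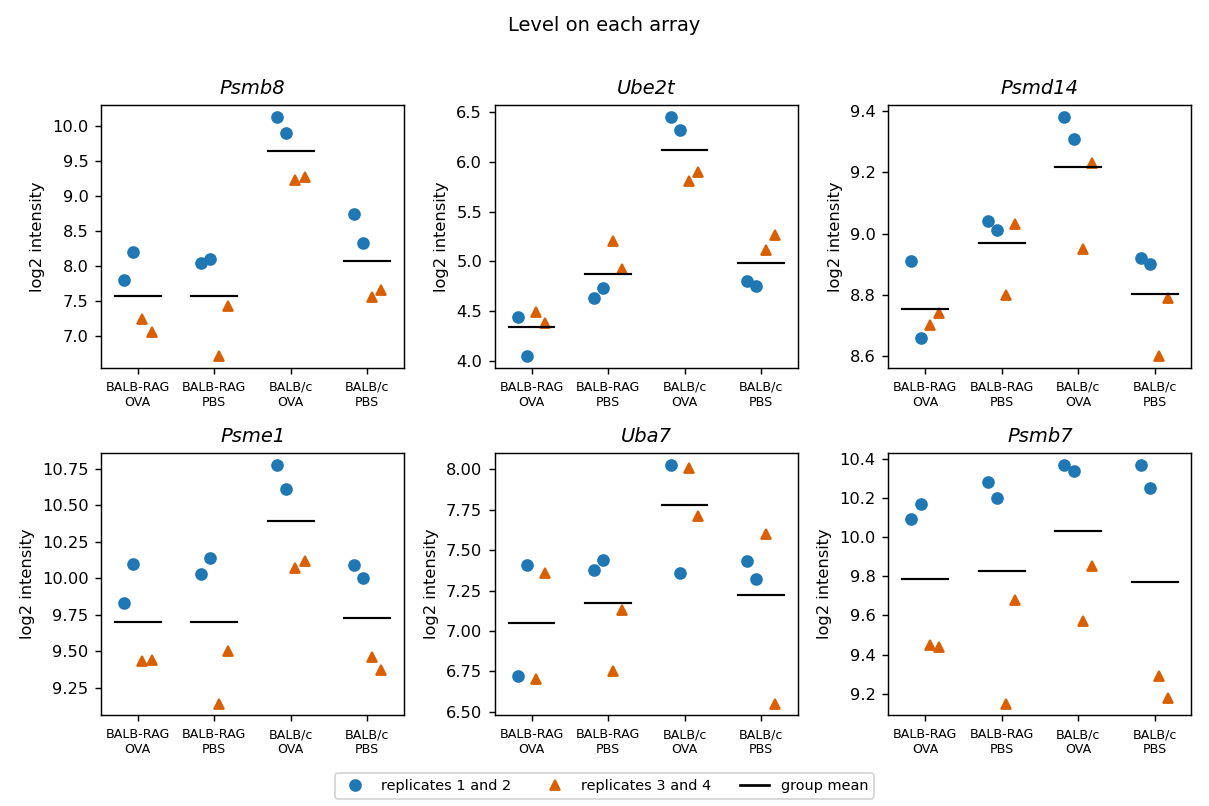
Log2 intensity on each array (vertical axis, a scale of its own per gene) of 6 members in the 4 groups, with circles for replicates 1 and 2, triangles for replicates 3 and 4 and a bar at each group mean. Psmb8, Ube2t and Psmd14 have their highest group mean in BALB/c after OVA, with no overlap with BALB/c after PBS, while Psmb7 differs mainly between circles and triangles.

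The sequences before the transcription start of the 3 genes that rose are shown with the motif matches they hold. Each is the 250 bases before the RefSeq start in the GRCm38.p6 build, with matches in capitals to the gamma interferon activation site (GAS, TTCNNNGAA), the core of the interferon-stimulated response element, the CCAAT box (CCAAT) and the cell cycle homology region (TTTGAA), searched on both strands. No 2 of these matches overlap in the sequences shown.
Psmb8, chr17:34197945-34198194, plus strand: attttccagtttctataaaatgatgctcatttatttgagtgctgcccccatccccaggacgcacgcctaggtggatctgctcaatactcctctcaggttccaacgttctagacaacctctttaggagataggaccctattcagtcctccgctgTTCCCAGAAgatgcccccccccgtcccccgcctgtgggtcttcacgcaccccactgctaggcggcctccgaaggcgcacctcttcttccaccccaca
Ube2t, chr1:134962315-134962564, plus strand: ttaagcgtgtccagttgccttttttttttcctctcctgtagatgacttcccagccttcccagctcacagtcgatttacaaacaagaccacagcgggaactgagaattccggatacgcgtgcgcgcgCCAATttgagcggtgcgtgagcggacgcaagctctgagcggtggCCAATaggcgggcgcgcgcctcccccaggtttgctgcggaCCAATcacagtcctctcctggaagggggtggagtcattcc
Psmd14, chr2:61711444-61711693, plus strand: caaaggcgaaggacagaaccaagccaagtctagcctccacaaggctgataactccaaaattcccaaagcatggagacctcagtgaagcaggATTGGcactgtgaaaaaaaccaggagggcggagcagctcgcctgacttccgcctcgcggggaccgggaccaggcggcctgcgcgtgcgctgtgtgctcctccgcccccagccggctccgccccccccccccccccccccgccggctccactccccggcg
Psmb8 has a GAS match at -97 to -89 from the start. Ube2t has 3 CCAAT boxes, at -124 to -120, -80 to -76 and -40 to -36, and Psmd14 has 1 on the other strand at -159 to -155. Of the 27025 genes with such a sequence, 8.13% held GAS, 3.46% the interferon-stimulated core, 37.5% CCAAT and 18.3% the cell cycle region. Of 45 tested members with a sequence, 6.67% held GAS, 6.67% the core, 31.1% CCAAT and 11.1% the cell cycle region. A match describes these letters and says nothing about binding.

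Same-numbered OVA and PBS arrays of BALB/c deviated together. Arrays of different numbers were not compared in this way, and the labels do not pair the numbers across groups. A split between sets of replicates, described further below, could give such correlations too. Whether the arrays are matched by number was therefore not tested, and values with a block for the replicate number assume that they are. With that number as a block, 10 of 53 members were higher and 0 lower (18.9% against 13.0% of all genes higher and 11.3% lower). The members added were Psma5, Psmd13, Psmd8, Psme1, Psme3ip1, Ube2k and Ube2n.

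Among the constitutive 20S and 19S subunits, small positive differences were widespread and mostly short of the test. Of 16 such genes (Psmb8 not counted), Psmd14 alone passed without the block and 4 with it. In sign 15 were positive on the probe set used, beside 3639 of 7276 genes, and the median log2 difference was 0.20, beside 0.00 for all genes. Other probe sets of Psma5, Psma6, Psma7, Psmc2, Psmc4 and Psmd6 were positive too, whereas those of Psmc6 and Psmd4 were negative. One of the Psmc6 sets read 7.94, 8.03, 8.31 and 8.54 on OVA replicates 1 to 4 of BALB/c, against 8.22, 8.24, 8.33 and 8.52 on PBS replicates 1 to 4. Psma5, in the alpha ring, differed by 0.54 ± 0.20 (adjusted p = 0.0846, limma, with the block 0.0067) and Psmd13, in the lid, by 0.38 ± 0.13 (adjusted p = 0.0632, limma, with the block 0.0117). Psmd8, also in the lid, differed by 0.59 ± 0.32 (adjusted p = 0.253, with the block 0.0304). Psma5 was measured by a second probe set, which read 9.27, 9.15, 8.40 and 8.60 on OVA replicates 1 to 4 of BALB/c, against 8.73, 8.63, 8.09 and 7.96 on PBS replicates 1 to 4, so each OVA array lay above the PBS array of the same number on both probe sets. The catalytic subunit Psmb7, which is replaced in immunoproteasomes by Psmb10, differed by 0.26 ± 0.32 (adjusted p = 0.677) and its ring neighbour Psmb3 by 0.16 ± 0.35 (adjusted p = 0.841). Psma6 and Psma7, in the alpha ring, differed by 0.13 and 0.26. The ATPases Psmc2, Psmc3, Psmc4 and Psmc6, which unfold substrates, differed by 0.13 to 0.19, and Psmc1 by -0.06. Psmd2, a scaffold of the 19S base, differed by 0.20.

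The caps and the assembly factors were split. Psme1, a subunit of the interferon-inducible activator cap, read 10.78, 10.61, 10.07 and 10.12 on the OVA arrays of BALB/c, against 10.09, 10.00, 9.46 and 9.37 on the PBS arrays. Each OVA array lay above its same-numbered PBS array, but the groups overlapped, and replicates 1 and 2 were higher than 3 and 4 in both. The log2 difference was 0.66 ± 0.25 (SE, n = 4 per group, limma, adjusted p = 0.0942, and 0.000824 with the block). The other caps differed little: Psme3, a nuclear activator, by -0.03, Psme4, the large single-chain activator, by 0.18, and the inhibitor Psmf1 by 0.03. Psme3ip1, a protein that binds Psme3, differed by 0.42 (adjusted p = 0.133, with the block 0.0434). None of the 5 assembly chaperones passed with limma, with or without the block: Psmd9 differed by 0.32, Psmd5 by 0.08, Psmg2 by -0.03 and Psmg3 by 0.10, and Psmg4 exceeded log2 4 on 4 arrays only.

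Of the 25 E1 and E2 genes, Ube2t alone passed without the block. The median difference was 0.02, and 13 were positive in sign, beside 3639 of 7276 genes. Uba7, the E1 of ISG15, read 8.03, 7.36, 8.01 and 7.71 on the OVA arrays of BALB/c, against 7.43, 7.32, 7.60 and 6.55 on the PBS arrays, a difference of 0.55 ± 0.25 (SE, n = 4 per group, limma, adjusted p = 0.162). OVA replicate 2 fell within the PBS range. The matching E2, Ube2l6, differed by -0.40 ± 0.57 (adjusted p = 0.732), and Uba3, the catalytic E1 subunit of NEDD8, by -0.10 ± 0.21. Ube2s, which extends ubiquitin chains for the anaphase-promoting complex, differed by 0.34 ± 0.23 (adjusted p = 0.403). Ube2k, which builds ubiquitin chains, differed by 0.40 (adjusted p = 0.15, with the block 0.0218). Ube2n, which works with a Ube2v partner, differed by 0.39 (adjusted p = 0.347, with the block 0.0298), but by 0.02 as the mean of its probe sets, which disagree. Ube2d2a, a housekeeping E2, stayed between 10.88 and 11.18 over all 16 arrays.

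**Figure D2:**
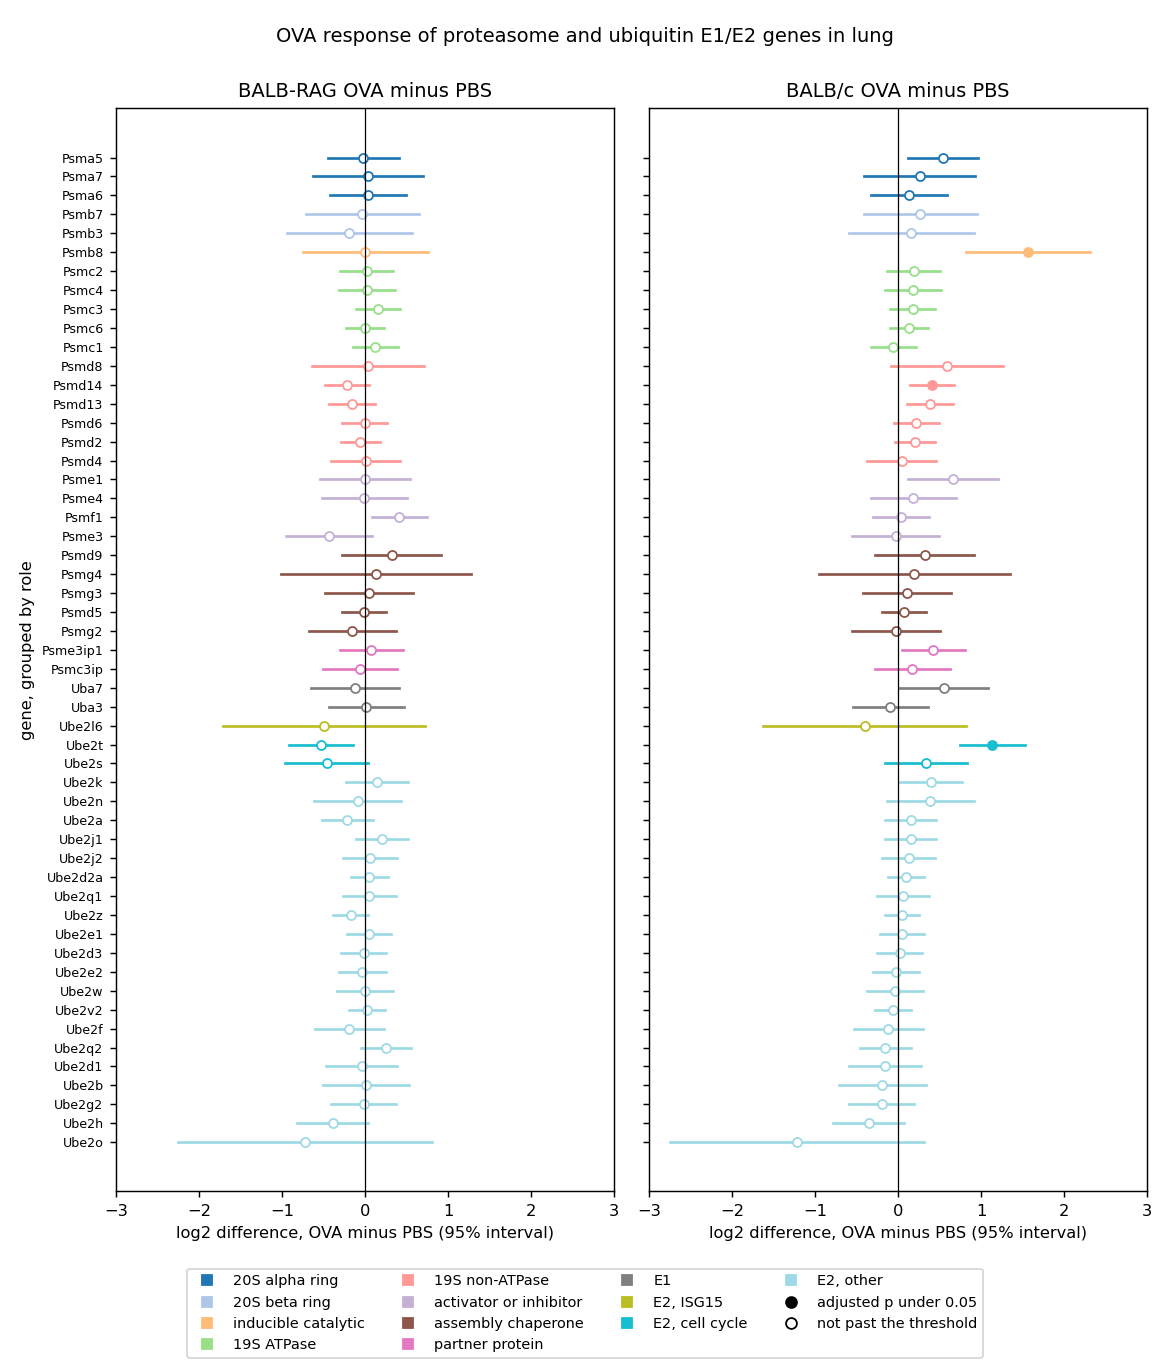
Log2 difference of OVA minus PBS with its 95% interval for the 53 tested members (rows, coloured by role), BALB-RAG on the left and BALB/c on the right. Filled points passed an adjusted p of 0.05 (Psmb8, Ube2t and Psmd14, all in BALB/c), and most core and cap subunits lie slightly right of 0 in BALB/c and around 0 in BALB-RAG.

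Genes that act beside the members were read from lists put together for this purpose. Of 8 tested genes of MHC class I antigen processing, 3 rose and 0 fell in BALB/c after OVA, with a median of 0.57. They were Tap1 (2.15 ± 0.20, adjusted p = 3.92e-06, limma), H2-K1, a class I heavy chain (1.01 ± 0.19), and Tapbp, which loads peptides onto class I (0.72 ± 0.12). Of 2 tested genes of the ISG15 system, Usp18, which removes ISG15, rose by 0.74 (adjusted p = 0.045, limma), and Trim25, an ISG15 ligase, differed by 0.24, for a median of 0.49. Of 6 ubiquitin and proteasome-bound genes 0 passed with limma and 1 had an unadjusted p under 0.05, Ubqln1, a shuttle to the proteasome (-0.22), with a list median of 0.14. Of 5 genes around NRF1 and NRF2, the transcription factors that drive proteasome and antioxidant genes, 0 passed with limma and 0 had an unadjusted p under 0.05. Their median was -0.17, with Nfe2l1, which encodes NRF1, at -0.17 and Vcp, the ATPase that extracts it from the membrane, at 0.17. Of 8 mitotic genes 7 rose, with a median of 2.15, among them Ccna2 (2.65 ± 0.24), Mki67 (2.59 ± 0.25) and Bub1b (1.86 ± 0.24), whose PBS mean, 3.94, was under the background level, so that this difference depends on values near background.

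Some cell type transcripts moved with these differences and others did not pass. All 6 genes of the dendritic cell list rose (limma), with a mean of 9.73 to 10.44 in BALB/c after OVA, against 8.06 to 8.46 after PBS. These were Itgax, Cd86, H2-Aa, H2-Eb1, Cd74 and Flt3, and whether they are particular to dendritic cells was not tested. Flt3 read 3.93 to 4.39 in BALB/c after PBS, near background. All 3 tested macrophage genes rose, with 9.29 to 10.40 after OVA against 6.79 to 7.87 after PBS. Of the 7 T cell genes 5 rose, with 5.50 to 6.79 against 4.40 to 4.80, of the 5 plasma cell genes 4 rose, with 9.29 to 11.06 against 6.92 to 8.18, and of the 5 B cell genes 1 rose, with 6.37 to 7.63 against 5.96 to 6.24. Of the 3 endothelial genes 1 fell, with 9.52 to 10.28 against 10.44 to 10.70, and of the 4 lung epithelial genes 1 fell, with 11.52 to 11.72 against 11.70 to 12.02. None of the tested NK cell, eosinophil, neutrophil and muscle genes passed with limma. The mean of 2 NK cell genes was 5.63 to 7.73 against 5.45 to 6.69, that of 2 eosinophil genes 5.29 to 6.32 against 5.13 to 5.41, and that of 2 neutrophil genes 8.08 to 9.20 against 7.46 to 10.71, all overlapping. The eosinophil genes were Siglecf and Il5ra, 2 of 4 listed, without Epx and Prg2. Il5ra lay near background, with 4.18 to 4.78 after OVA against 3.63 to 3.95 after PBS, so this list can say little about eosinophils. The 2 cardiac muscle genes averaged 6.01 to 6.96 after OVA, against 7.31 to 8.11 after PBS, without overlap. The 3 skeletal muscle genes averaged 3.89 to 4.21 after OVA, against 9.02, 4.74, 4.46 and 4.26 on PBS replicates 1 to 4. Apart from PBS replicate 1 these lay near the background level, by a narrow gap without overlap. More cells of a type and more RNA per cell cannot be told apart in whole lung, and the part of these cells in the rise of Psmb8, Ube2t and Psmd14 was not tested.

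On the arrays labelled BALB-RAG, 0 of 53 members passed for OVA against PBS (limma), where 0.137% of all genes were higher and 0.0275% lower, so few genes of any kind passed. The count was 0 in every alternative run, the replicate 2 array left out included. At an unadjusted p under 0.05 there were 2 members, Ube2t and Psmf1, beside 562 of 7276 genes. In Psmf1 every OVA array lay above every PBS array on the probe set used, as in 2.67% of all genes. In Ube2t every OVA array lay below, as in 1.95%. The median difference was -0.01, beside 0.02 for all genes, with 23 members positive in sign, beside 3958 of 7276 genes.

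Psmb8 read 7.80, 8.20, 7.25 and 7.07 on the OVA arrays labelled BALB-RAG, against 8.05, 8.11, 6.72 and 7.43 on their PBS arrays. The groups overlapped, and the difference was 0.00 ± 0.35 (95% interval -0.75 to 0.75), or -0.21 ± 0.37 without OVA replicate 2.

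Ube2t read 4.44, 4.05, 4.49 and 4.38 on the OVA arrays labelled BALB-RAG, against 4.63, 4.73, 5.21 and 4.92 on their PBS arrays. Each OVA array lay below each PBS array, opposite in sign to BALB/c, with a difference of -0.53 ± 0.18 (SE, n = 4 per group, limma, adjusted p = 0.375), or -0.43 without OVA replicate 2. These levels are low, between 4.05 and 5.21 where 4 was taken as background. Psmf1 read 7.02, 6.90, 7.18 and 6.76 on the OVA arrays, against 6.73, 6.61, 6.12 and 6.75 on the PBS arrays. The difference was 0.41 ± 0.16 (limma, adjusted p = 0.48), or 0.43 without OVA replicate 2. Another Psmf1 probe set overlapped, with 5.46 to 6.02 after OVA against 5.2 to 6.28 after PBS. Psmd14 differed by -0.22, Psme1 by 0.00, Uba7 by -0.12 and Psma5 by -0.02, each with overlapping groups. The mitotic list was low on the same OVA arrays: its mean was 3.84 to 4.52 after OVA, against 5.42 to 5.78 after PBS, and 1 of its 8 genes passed, Mki67 (-1.64, adjusted p = 0.0105, limma). Its genes Aurka, Bub1 and Bub1b were under log2 4 on all 4 of these OVA arrays, so the list mean depends partly on values near background. Of the class I, ISG15, ubiquitin and NRF lists 0 genes passed there, with medians of 0.01, 0.07, -0.03 and -0.17.

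The OVA response differed between the lines for 2 members, both smaller in the arrays labelled BALB-RAG, where 3.86% of all genes had a higher and 4.63% a lower response in that line. For Ube2t the difference of responses was -1.67 ± 0.26 (SE, 4 groups of 4, limma, adjusted p = 0.000864), and it was -1.57 (adjusted p = 0.00175) without replicate 2 of BALB-RAG after OVA. For Psmd14 it was -0.63 ± 0.18 (adjusted p = 0.0364, limma), and -0.60 (adjusted p = 0.0652) without that replicate. For Psmb8 it was -1.56 ± 0.50, with a 95% interval of -2.63 to -0.50 and an adjusted p of 0.0657 (limma), which missed the threshold. It was -1.77 ± 0.50 without replicate 2 of BALB-RAG after OVA (adjusted p = 0.0433, limma) and -1.56 ± 0.22 with the replicate block (adjusted p = 0.00064, limma), and passed in both. With the block 7 members had a smaller response and 0 a larger one (13.2%, against 8.07% and 7.77% of all genes), adding Psma5, Psmb8, Psmd13, Psme1 and Ube2s. Of the 24 pairs of same-numbered arrays 23 had deviations that correlated over 0.1, and the exception was replicate 2 of the BALB-RAG groups, with 0.025. Of the 53 members 41 had a negative difference of responses, beside 3539 of 7276 genes. Of the companion lists, 2 of 8 class I genes and 8 of 8 mitotic genes had a smaller response on the arrays labelled BALB-RAG, and 0 genes of the ISG15, ubiquitin and NRF lists passed. For the mitotic genes Aurka, Bub1 and Bub1b this depends on BALB-RAG values under the background level after OVA.

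After PBS, 0 of 53 members passed between the lines (limma), where 1.97% of all genes were higher and 1.94% lower on the arrays labelled BALB-RAG. At an unadjusted p under 0.05 there were 3 members, beside 1154 of 7276 genes. They were Ube2g2, Ube2v2 and Ube2q1, with differences of -0.48, -0.24 and -0.32. In 1 member, Ube2e2 (0.23), every BALB-RAG array lay above every BALB/c array, where 4.21% of all genes did so, and in 2, Ube2v2 and Ube2q1, every one lay below, where 5.44% did. Psmb8 differed by -0.50 ± 0.35 and Ube2t by -0.11 ± 0.18. The median was -0.03, beside -0.01 for all genes. Of the 8 mitotic genes 3 were higher in the line labelled BALB-RAG, and of the 5 NRF genes 1 was lower, Nfe2l2, which encodes NRF2 (-0.52, adjusted p = 0.0257, limma).

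After OVA, 5 of 53 members were lower on the arrays labelled BALB-RAG than in BALB/c and 0 were higher, where 11.6% of all genes were higher and 12.1% lower. The share of lower calls was near that of all genes, and without replicate 2 of BALB-RAG the count was 6. Psmb8 fell by 2.06 ± 0.35 on the log2 scale (SE, n = 4 per group, limma, adjusted p = 0.000524), which is 4.17-fold lower, with 7.07 to 8.20 on the BALB-RAG arrays against 9.24 to 10.13 on those of BALB/c. Ube2t fell by 1.78 ± 0.18 (limma, adjusted p = 6.52e-06), 3.44-fold lower. Psmd14 fell by 0.46 (adjusted p = 0.0125, limma) and Psmd2 by 0.36 (adjusted p = 0.0264, limma), and for these 4 genes the groups did not overlap. In all, 9 of 53 members lay wholly below and 0 wholly above, where 13.6% and 13.3% of all genes did. Uba7 fell by 0.73 ± 0.25 with overlapping groups on the probe set used (adjusted p = 0.0455, limma, and 0.0515 with the block). A second Uba7 probe set read 6.34 to 6.93 on the BALB-RAG arrays, against 7.05 to 7.64 in BALB/c. Without replicate 2 of BALB-RAG all 5 calls held, with -2.27 for Psmb8, -1.68 for Ube2t, -0.43 for Psmd14, -0.39 for Psmd2 and -0.85 for Uba7, and Psme1 was added (-0.82, adjusted p = 0.0398, limma).

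With the replicate number as a block, 14 members were lower and 0 higher (26.4% against 17.1% and 16.6% of all genes). They were Psma5, Psmb3, Psmb8, Psmd13, Psmd14, Psmd2, Psmd8, Psme1, Psme3ip1, Ube2a, Ube2k, Ube2n, Ube2s and Ube2t. Of the 16 constitutive 20S and 19S genes all 16 were negative in sign on the probe set used, where 3545 of 7276 genes were. Other probe sets of Psma5, Psma7, Psmc2, Psmc4 and Psmd6 were negative too, whereas those of Psmc6 and Psmd4 were slightly positive. Psma6 had other sets of both signs, the positive near background. The median over the 16 genes was -0.24, beside 0.01 for all genes. The largest of these was Psmd8, with 9.02, 8.74, 8.38 and 8.60 on the arrays labelled BALB-RAG against 10.06, 9.83, 9.0 and 9.18 in BALB/c, a difference of -0.83 ± 0.32 (limma, adjusted p = 0.0716, and 0.00333 with the block). The BALB-RAG range touched that of BALB/c at a single pair of arrays, replicate 1 of BALB-RAG and replicate 3 of BALB/c. Of the companion lists, 6 of 8 class I genes, 1 of 2 ISG15 genes, 1 of 6 ubiquitin genes, 1 of 5 NRF genes and 8 of 8 mitotic genes were lower on the arrays labelled BALB-RAG, and 0 were higher. Among the mitotic genes, Aurka, Bub1 and Bub1b were under the background level on the BALB-RAG arrays. Immune cell transcripts were lower in the same comparison. All 6 dendritic cell genes were lower on the arrays labelled BALB-RAG (limma), with a mean of 8.02 to 8.17, against 9.73 to 10.44 in BALB/c, and all 3 macrophage genes were, with 7.33 to 7.79 against 9.29 to 10.40. So were 6 of 7 T cell genes (3.19 to 5.66 against 5.50 to 6.79), 4 of 5 B cell genes (3.77 to 6.02 against 6.37 to 7.63), 4 of 5 plasma cell genes (4.88 to 9.08 against 9.29 to 11.06) and 1 of 2 NK cell genes. Both cardiac muscle genes were higher, with 8.65 to 10.14 against 6.01 to 6.96, as was 1 gene each of the 3 skeletal muscle, 4 lung epithelial and 3 endothelial genes, while 0 of 2 eosinophil and 0 of 2 neutrophil genes passed. The part of these cells in the differences between the lines was not tested. This comparison and the 2 responses share arrays, so they are not independent of each other.

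A split by replicate number ran through the members in all 4 groups. Over 8 arrays each, replicates 1 and 2 against replicates 3 and 4, 24 of 53 members were higher and 3 lower (limma with group means and a term for the split, adjusted p under 0.05), where 22.6% of all genes were higher and 15.5% lower. The members' share of higher calls was 45.3%, and their median was 0.23, beside 0.06 for all genes. The labels do not say what sets these replicates apart, and the cause was not tested. Proteasome genes made up 15 of the 24. Without replicate 2 of BALB-RAG after OVA 25 members were higher and 3 lower.

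Psma7 averaged 9.71 on replicates 1 and 2 and 8.90 on replicates 3 and 4, a difference of 0.81 ± 0.07 (adjusted p = 1.18e-06, limma), and Psmb7 averaged 10.26 and 9.45, a difference of 0.81 ± 0.09. For 7 members, Psma6, Psma7, Psmb7, Psmd4, Psmg4, Ube2b and Ube2d1, all 8 arrays of the first set lay above all 8 of the second, where 5.31% of all genes did so. Psmg4 is counted among these, but it exceeded log2 4 only on replicates 1 and 2 of BALB/c and passed the filter through them, so the size of its difference is not given. Psme4 went the other way, by -0.57 ± 0.08 with no overlap, where 1.70% of all genes lay wholly below, and Uba3 by -0.40 and Ube2f by -0.31 were the other members lower. Psmd14, Ube2t and Uba7 did not pass for this split, with 0.16, -0.12 and 0.16, whereas Psmb8 did, with 0.88 ± 0.10. Within replicates 1 and 2 alone Psmb8 rose by 1.48 with OVA in BALB/c (adjusted p = 0.005, limma), and within 3 and 4 alone by 1.64 (adjusted p = 0.00926).

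**Figure D3:**
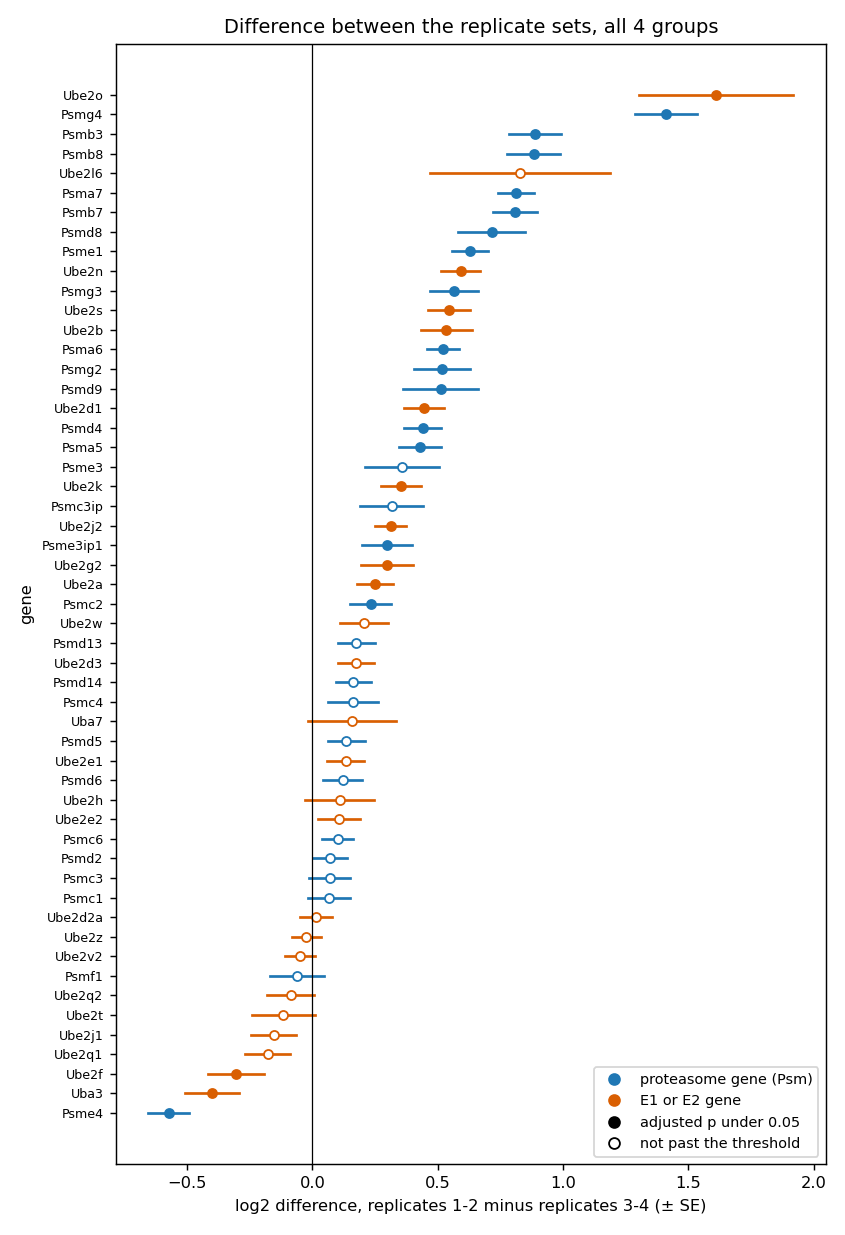
Log2 difference of replicates 1 and 2 minus replicates 3 and 4 over all 4 groups with its standard error, for the 53 members in order of size, blue for Psm genes and orange for E1 and E2 genes. Filled points passed an adjusted p of 0.05, 24 to the right of 0 and 3 to the left, with Psme4 lowest.

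A set of E2 genes stood out on single arrays instead. Ube2o, an E2 and ligase that clears proteins from maturing red blood cells in mice, read 5.79, 5.35, 4.48 and 4.84 on the OVA arrays labelled BALB-RAG, against 5.78, 8.13, 4.34 and 5.12 on their PBS arrays. In BALB/c it read 5.57, 5.09, 3.99 and 3.65 after OVA, against 6.40, 6.98, 4.25 and 5.54 after PBS. Replicate 2 of PBS was the highest array of both lines. Ube2h, which works with the CTLH ligase of erythroid cells, read 9.46 on replicate 2 of BALB-RAG after PBS. The other 15 arrays read 8.0 to 8.78, of which replicate 2 of BALB/c after PBS was the highest. A second, lower-reading Ube2h probe set was not highest on replicate 2 of BALB-RAG after PBS. It read 6.01 there and 6.34 on replicate 4. Ube2l6 was highest on replicate 2 of both PBS groups, with 7.92 and 6.98, beside 4.11 to 6.51 elsewhere.

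Red blood cell and neutrophil transcripts were high on those arrays too. Slc4a1, the band 3 anion exchanger of red blood cells, read 10.99 on replicate 2 of BALB-RAG after PBS and 8.88 on replicate 2 of BALB/c after PBS, and Trim10, an erythroid factor, read 10.08 and 8.79. On the other arrays Slc4a1 read at most 7.50 and Trim10 at most 6.97. These were the 2 of 7 listed red blood cell genes that were tested, and the list was drawn up after the E2 values were seen. None of the 3 E2 genes passed in either OVA comparison with limma. Ube2o differed by -1.22 ± 0.72 in BALB/c (adjusted p = 0.306) and by -0.82 (adjusted p = 0.542) without PBS replicate 2, and Ube2l6 by 0.07 without it. Ube2h differed by -0.35 ± 0.20 (limma, adjusted p = 0.285), with every OVA array below every PBS array, as was the case for 9.24% of all genes. On its second probe set these groups overlapped, with 5.82 to 6.0 after OVA against 5.99 to 6.12 after PBS. In the same comparison 3 members lay wholly above, beside 10.4% of all genes. The 2 tested neutrophil genes averaged 10.51 on replicate 2 of BALB-RAG after PBS and 10.71 on replicate 2 of BALB/c after PBS, the highest of the 16 arrays, with at most 10.09 on the others. The 3 skeletal muscle genes were also highest on replicate 2 of BALB-RAG after PBS, with 9.25, but averaged 4.74 on replicate 2 of BALB/c after PBS. The part of red blood cells, neutrophils and muscle in these values was not tested.

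**Figure D4:**
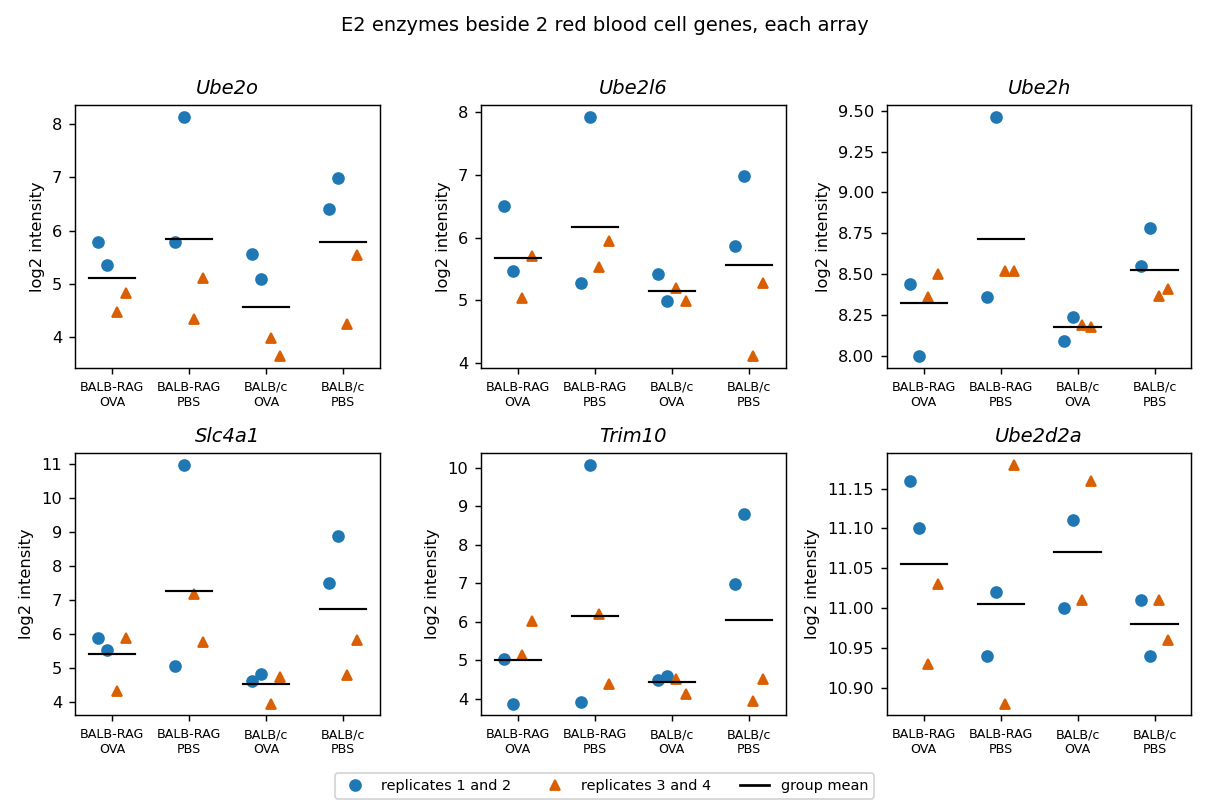
Log2 intensity on each array (vertical axis, a scale of its own per gene) of Ube2o, Ube2l6 and Ube2h, of the red blood cell genes Slc4a1 and Trim10, and of Ube2d2a for contrast, in the 4 groups, with circles for replicates 1 and 2, triangles for 3 and 4 and a bar at each group mean. In both PBS groups the highest point is replicate 2 for every gene but Ube2d2a, whose values stay within 10.88 to 11.18.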

How the data were processed

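Whole lung RNA of 16 samples was measured on 1-colour Affymetrix arrays. Per the submitters' processing notes the authors made the values with GCRMA; the sources used here give no version. The deposited unit is linear intensity, of which log2 was taken without normalising again. GCRMA normalises across arrays, so a shift shared by most genes would be removed. The number of arrays limits the precision.

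The deposited labels do not match the values beside them in parts of the table. Values were therefore taken for 14300 of 45101 labels in 3 stretches, from 64 rows above, 47 rows below and 16168 rows below the label. For the second stretch both directions were checked: probe sets of a gene correlated across arrays with a median of 0.618 from 47 rows below, 0.0272 from 47 rows above and 0.129 as deposited. The other stretches gave 0.666 and 0.63. All gene names rest on this step. A single symbol was given for 13146 of these labels, more than 1 for 366, which were left out, and 788 had no symbol. All 84 member labels matched RefSeq by gene identifier, and 1 label with a member among 2 symbols was left out.

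The probe set with the highest mean stood for a gene. Group means over 16 arrays (12 residual degrees of freedom) were compared using limma 3.58.1 (R 4.3.3), adjusted by Benjamini-Hochberg over 7276 genes at 0.05 and tested on simulated data. Same-numbered arrays deviated together in each pair of BALB/c groups (correlations 0.304 to 0.456) and between the lines after PBS (0.32 to 0.349) and after OVA (0.182 to 0.332). Between the BALB-RAG groups they were 0.025 to 0.478, so no gene's value with the block is given for BALB-RAG OVA against PBS by itself. The difference of responses with the block does use the replicate number of the BALB-RAG arrays, the pair at 0.025 included. Correlations between arrays of different numbers were not computed, and the split between the replicate sets could give positive values too. The correlations above therefore do not show that arrays are matched by number, which all values with the block assume.

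Named were the catalytic subunits, caps, E1s, ISG15 and cell cycle E2s, up to 4 members of every other role by smallest p in BALB/c, members called between lines, all members of counts of 5 or fewer, and up to 3 genes of each companion list. Others named (Psmc1, Psmd4, Ube2a, Ube2b, Ube2d1, Ube2d2a, Ube2e2, Ube2f, Psmg4, Trim25 among them) were chosen after their values were seen. The members and lists were chosen with earlier results of these data known. The planned comparison of inducible with constitutive catalytic subunits was not run, since Psmb5, Psmb6, Psmb9 and Psmb10 are not analysed here. Alternatives changed the filter, floor, probe set rule, normalisation, weights, block, replicate sets, arrays and label placement.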

Additional observations from a re-analysis of the deposited data

Results flagged for a closer look

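Among 124 sets of 4 arrays examined for the named members, 3 held an array that stood apart by Dixon's test, where chance flags about 1 set in 20. All 3 lay in the PBS group labelled BALB-RAG. Its replicate 3 had 8.80 for Psmd14, beside 9.01 to 9.04 on the others. Its replicate 1 had 9.54 for Psmd2, beside 9.28 to 9.32, and its replicate 2 had 9.46 for Ube2h, beside 8.36 to 8.52. On a second Ube2h probe set replicate 2 did not stand apart, with 6.01 beside 5.62 to 6.34.

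The response to OVA differed between the lines by a test of the difference itself for Ube2t (-1.67) and Psmd14 (-0.63), BALB-RAG minus BALB/c on the log2 scale.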

How the results depend on the processing

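Psmb8 kept its call in BALB/c in all 30 alternatives that kept the placement of labels (1.39 to 1.79), and Psmb8 and Ube2t kept theirs between the lines after OVA in all 30. Ube2t in BALB/c kept it in 29, and Psmd14 in 22. Between the lines after OVA, Psmd2 lost its call in 6 of 29 and Uba7 in 14 of 30, and the Psmd14 difference of responses lost it in 12 of 29. The cause of each loss was not tested, beyond the fewer arrays where arrays were left out.

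In BALB/c the 3 members called became 7 with array weights, 10 with the replicate block, 11 with a term for the replicate sets, 1 with replicates 3 and 4 alone and 9 with labels as deposited (4 higher, 5 lower). Leaving out 1 array at a time gave 2 to 4. For BALB-RAG OVA against PBS the count was 0 throughout. The 2 called for the difference of responses became 4 with quantile normalisation, 7 with the replicate block, 7 with the set term, 1 with replicates 3 and 4 alone and 1 (higher) with the second stretch from 47 rows above, and 1 to 3 with an array left out. It was 1 without replicate 3 or 4 of BALB-RAG after OVA, replicate 1, 2 or 4 of BALB-RAG after PBS, replicate 1 or 2 of BALB/c after OVA or replicate 3 or 4 of BALB/c after PBS. After PBS the 0 became 1 with array weights and 1 with the second stretch from above, and 0 with any array left out. After OVA the 5 became 8 with centred arrays, 10 with quantile normalisation, 21 with array weights, 14 with the replicate block, 17 with the set term, 11 with replicates 1 and 2 alone, 2 with replicates 3 and 4 alone, 14 with labels as deposited (8 higher, 6 lower) and 8 with the second stretch from above (2 higher, 6 lower). Leaving out 1 array gave 3 to 9, with 3 without replicate 3 of BALB-RAG after OVA or replicate 1 of BALB/c after OVA, and 9 without replicate 3 of BALB-RAG after PBS or of BALB/c after OVA. The 27 members of the replicate sets became 23 to 30. The block changed no call of a named member other than those given beside the results.

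With array weights 1933 genes were called in BALB/c, with the replicate block 1764 and with the set term 1820, beside 1128 as reported, and with replicates 3 and 4 alone 547. With labels as deposited Psma5 became -1.08 and Uba3 1.59 in BALB/c, and Psmd2 0.49 and Uba7 0.016 after OVA. With the second stretch from 47 rows above Psmb8 became -0.18 and Psmd14 -0.45 in BALB/c, Psmd14 0.46 for the difference of responses, and Psmd14 0.94 and Uba7 0.16 after OVA. These settings give other rows of the table to the same names. The comparison of inducible with constitutive catalytic subunits, with its alternatives, was not run.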
